A study of Mus musculus with 3 samples.

Results

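The genes described here are 10 cartilage genes: Sox9, Sox5 and Sox6, the SOX trio of chondrocyte transcription factors, and 7 genes of non-collagen cartilage matrix, Acan, Hapln1, Comp, Matn1, Matn3, Matn4 and Lect1. They were chosen by name, as the rows of the deposited count tables with these symbols. All 10 were found among the 43280 genes listed, and all 10 were among the 12125 genes with a mean of at least 5 CPM over the libraries, called measured here. CPM expresses a gene's count relative to the TMM-scaled total of its library. The RNA was from primary cells of the mouse embryo's skeletal mesenchyme at stage E15.5, described by the series as calvarial, the tissue of the skull vault. The 3 libraries, 1 per genotype, differ at Ctnnb1, the beta-catenin gene. The control was beta-catenin fx/fx, with floxed alleles and no Cre. The cKO was beta-catenin fx/fx; Dermo1-Cre, in which a Cre made from the Dermo1 (Twist2) locus acts in mesenchymal cells. The dTF-cKO was beta-catenin fx/dm; Dermo1-Cre. What dm stands for is not explained in the labels; a known double-mutant Ctnnb1 allele with that abbreviation makes a protein that still serves cell adhesion but not transcription. No fx/dm library without Cre was analysed, and the labels do not say how many embryos each library holds. Because each genotype has a single library, differences could not be checked against replicates, no genotype could be tested, and every interval covers counting error only.

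Cartilage is made by chondrocytes, which arise from condensed mesenchyme. SOX9 is required to start that fate, and SOX5 and SOX6, a closely related pair, work with it at the enhancers of cartilage genes. Their targets include aggrecan, the large proteoglycan of cartilage, link protein, which ties aggrecan to hyaluronan, the matrilins and COMP, adaptor proteins between collagen fibrils and proteoglycan, and chondromodulin. Most of the skull vault forms as membrane bone without a cartilage template, and in skeletal progenitors beta-catenin is known to favour the osteoblast over the chondrocyte fate.

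The promoters of 3 matrix genes are shown as examples from the range described below. Matn1 differed most upward in the cKO, and Acan differed most downward in the dTF-cKO. The proportion of Lect1 to the collagen gene Col2a1 overlapped between control and cKO, though that of Hapln1 was closer. Each run is the 250 bases before the RefSeq start site on GRCm38.p6 (mm10), 5′ to 3′ on the strand of the gene, with CG dinucleotides in capitals. The windows are chr4:130944135-130944384 on the plus strand for Matn1, chr7:79052976-79053225 on the plus strand for Acan and chr14:79662184-79662433 on the minus strand for Lect1, which RefSeq calls Cnmd.
Matn1: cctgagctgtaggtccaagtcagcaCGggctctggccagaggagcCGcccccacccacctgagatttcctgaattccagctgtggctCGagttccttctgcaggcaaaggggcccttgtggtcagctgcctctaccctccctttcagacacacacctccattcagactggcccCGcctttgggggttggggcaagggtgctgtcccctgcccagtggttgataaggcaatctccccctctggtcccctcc
Acan: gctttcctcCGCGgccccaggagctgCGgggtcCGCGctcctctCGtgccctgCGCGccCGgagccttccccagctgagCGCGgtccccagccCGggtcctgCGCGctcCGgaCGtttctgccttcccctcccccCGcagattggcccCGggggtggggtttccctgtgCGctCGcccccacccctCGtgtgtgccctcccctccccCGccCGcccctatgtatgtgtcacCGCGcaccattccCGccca
Lect1: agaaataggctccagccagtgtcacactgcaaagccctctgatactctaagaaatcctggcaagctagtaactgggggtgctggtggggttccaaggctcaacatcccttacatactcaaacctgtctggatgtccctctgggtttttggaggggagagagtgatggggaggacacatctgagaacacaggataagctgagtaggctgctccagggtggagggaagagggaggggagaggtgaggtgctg
The Acan window held 26 CG dinucleotides at 74.4% GC, more than 90.4% of the 32851 RefSeq promoter windows, whose median was 6. The Matn1 window held 4 at 62% GC and the Lect1 window 0 at 54% GC. None of these 3 windows overlapped an exon annotated in GENCODE vM21.

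RefSeq promoter windows were matched for 8 of the 10 genes, at 14 start sites. They were searched on both strands for 8 heptamers of the SOX type (AACAAAG or AACAATG or ATCAAAG or ATCAATG or TACAAAG or TACAATG or TTCAAAG or TTCAATG). The search for TCF/LEF words used CTTTGAT and CTTTGAA, which are the reverse complements of ATCAAAG and TTCAAAG, so a TCF/LEF match is always also a SOX match. A SOX heptamer stood in 21.8% of all 32851 windows and a TCF/LEF word in 7.48%. Among these genes 1, Sox6, had any match: SOX heptamers stood at 6 of its start sites and TCF/LEF words at 3. No listed word stood in the windows of the matrix genes, which says only that these letters are not in those 250 bases. The Sox6 window that is shown, chr7:115801610-115801859 on the minus strand, lies before its start site farthest downstream and overlaps no annotated exon. Its capitals mark TTCAAAG, which is read as a SOX heptamer on this strand and as a TCF/LEF word on the other, 109 bases before the start.
Sox6: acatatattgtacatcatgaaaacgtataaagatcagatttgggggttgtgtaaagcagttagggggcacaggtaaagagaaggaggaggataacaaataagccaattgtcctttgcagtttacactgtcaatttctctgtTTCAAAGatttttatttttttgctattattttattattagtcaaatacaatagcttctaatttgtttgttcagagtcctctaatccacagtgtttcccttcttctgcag

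The libraries differed widely in the levels of markers of other cell types. Their depths were 3634819 (control), 2678457 (cKO) and 2905264 (dTF-cKO) counts. Ctnnb1 had 3669, 2106 and 1236 counts in the same order; counts per gene do not show which exons remained. Twist2, the gene into which Dermo1-Cre is inserted, had 21, 80 and 35 counts. Xist counts were 1233, 0 and 2, and the Y-linked Ddx3y had 0, 161 and 157. In the comparisons with the control, genotype and sex therefore cannot be told apart. The Cre-carrying libraries were alike in both genes. All 8 skeletal mesenchyme markers (such as Prrx1, Twist1 and Pdgfra) were above 0 in each library, and their sum was 115915, 23453 and 5505 CPM, most of it Col1a1. The 12 osteoblast markers summed to 185699, 39378 and 8307 CPM. The 13 epidermis and follicle markers summed to 155, 19998 and 11383 CPM, with Shh at 0 in the control and Lhx2 and Shh at 0 in the dTF-cKO. The 10 skeletal muscle markers summed to 1519, 248 and 9.65 CPM, with Myod1, Myog and Ckm at 0 in the dTF-cKO. In such mixed tissue, fewer cells of a type and less RNA per cell cannot be told apart.

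The 10 cartilage genes together took 0.0461% of the control's counts (exact Clopper-Pearson 95% interval 0.0439% to 0.0483%). Their share was 0.0918% of the cKO library (0.0882% to 0.0955%) and 0.0129% of the dTF-cKO library (0.0117% to 0.0143%). In counts, the sums were 1674, 2458 and 376, so each share of the set rests on few reads in the dTF-cKO. As a share of library counts the set was thus largest in the cKO and smallest in the dTF-cKO, and the 10 genes did not keep their proportions. The place of the dTF-cKO depends on the scaling. Under the stromal scaling described below, the median log2 difference of the 10 genes from the control was 0.64 there, in place of -1.14.

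**Figure D1:**
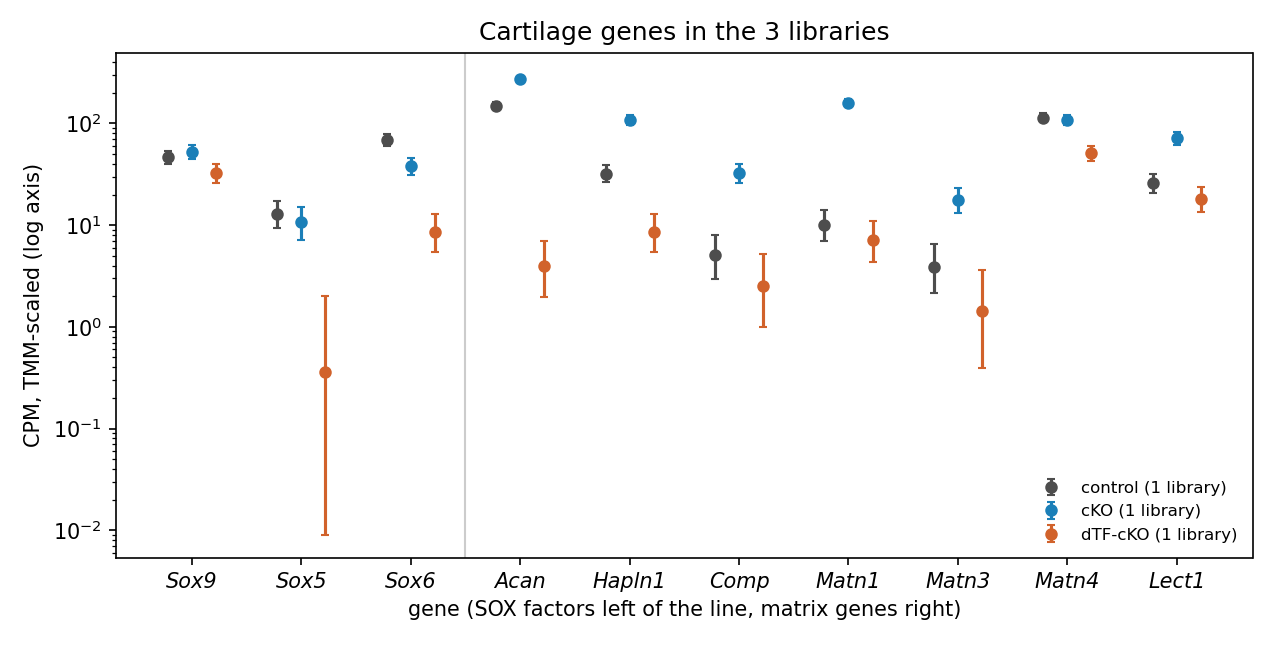
CPM of the 10 genes (log axis, TMM-scaled) for the 3 genotypes, 1 library each; bars are exact Poisson 95% intervals of the count. Matn1 stands at 10.1, 158 and 7.15 CPM, while Acan stands at 149, 273 and 3.93 CPM.

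The cKO was compared with the control to see which cartilage genes differ between these libraries. They also differ in sex and in markers of other cell types, so a difference cannot be assigned to the loss of beta-catenin. Higher and lower mean a log2 CPM difference of at least 1, or 2-fold, in that direction. By this rule 5 of the 10 genes were higher in the cKO, against 9.67% of all measured genes, and 0 of 10 were lower, against 6.78%. All 5 were matrix genes, and the counting interval of each ratio excluded 1. Comp and Matn3, which reach the 5 CPM floor only through the cKO, are among the 5. With no expression floor 5 of 10 were again higher, against 9.5%, and 0 lower, against 10.1%. The median log2 difference of the 10 genes was 1.16, and that of all measured genes was 0.06. None of the SOX trio reached 2-fold. With the stromal scaling described below the 5 were still higher, against 8.15% of all measured genes, and 1 gene, Sox6, was lower, against 9.76%. A floor of 20 CPM left 3 of 7 genes higher, against 8.48%. Sox6 was also lower by a 1.5-fold rule, which 13.2% of all measured genes met downward, and by its interval alone, as were 19.2%.

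Sox9 (chr11:112782224-112787760, plus strand), which starts the chondrocyte programme, had library counts of 166, 149 and 91 in the order control, cKO, dTF-cKO, used throughout. On the scaled level these were 46.4, 52.7 and 32.5 CPM. The cKO to control ratio was 1.14 (0.904 to 1.42), so the cKO was not separated from the control beyond counting error. SOX9 is also made by cells of the hair follicle. In the cKO 9 of 11 measured epidermis and follicle markers were higher and 1, Lhx2, lower (median 6.34). The 4 largest differences from the control in that list were those of Krt1, Krt10, Lor and Krt14. Lhx2 had 66, 5 and 0 counts. The part of follicle cells in the Sox9 value was not tested. Sox5 (chr6:143828425-144781977, minus strand) had 46, 30 and 1 counts, or 12.9, 10.6 and 0.357 CPM. Its ratio in the cKO was 0.825 (0.503 to 1.33), an interval that also includes 1. Sox6 (chr7:115470872-116038796, minus strand), the partner of Sox5, had 246, 108 and 24 counts, or 68.8, 38.2 and 8.58 CPM. Its cKO to control ratio was 0.555 (0.439 to 0.699), which is 1.80-fold lower, below the size rule but outside counting error. Sox6 is also expressed in skeletal muscle and red cell precursors. The skeletal muscle markers were lower along with it (9 of 9 measured at least 2-fold lower, median -2.34), the erythroid median was -0.17, and their part in the Sox6 value was not tested.

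Matn1, matrilin-1, an adaptor of the cartilage matrix made by non-hypertrophic chondrocytes (chr4:130944385-130955475, plus strand), had 36, 448 and 20 counts. The cKO was 15.7-fold above the control (11.2 to 22.8), the largest difference among the 10 genes in that comparison. Comp, a pentameric matrix protein of cartilage and tendon (chr8:70373558-70382066, plus strand), had 18, 92 and 7 counts, and the cKO was 6.46-fold higher (3.87 to 11.4). The 6 tendon markers summed to 464, 266 and 141 CPM, with none at 0. In the cKO 2 of the 4 measured tendon markers were lower and 0 higher (median -1.02), and their part in the Comp value was not tested. Matn3, matrilin-3 (chr12:8947929-8972028, plus strand), had 14, 50 and 4 counts, a 4.52-fold excess in the cKO (2.46 to 8.85). These 3 genes were sparse in the control, and the cKO stood apart from the other libraries in each of them.

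Hapln1, link protein (chr13:89539796-89611652, plus strand), had 115, 305 and 24 counts, a 3.35-fold excess in the cKO (2.70 to 4.19). Lect1, which encodes chondromodulin, a glycoprotein of cartilage that restrains vessel growth (chr14:79637690-79662170, minus strand), had 92, 201 and 51 counts, a 2.76-fold excess (2.15 to 3.58). Acan, aggrecan (chr7:79053483-79115099, plus strand), had 533, 772 and 11 counts. At 1.83-fold (1.64 to 2.05) it was higher in the cKO outside counting error and short of the 2-fold rule. Matn4, a matrilin also found in other connective tissues and the nervous system (chr2:164389393-164405160, minus strand), had 408, 303 and 143 counts, and its cKO to control ratio of 0.939 (0.807 to 1.09) was within counting error. The 3 matrilins of the set thus spread from near equality to more than 10-fold in the same pair of libraries. The Schwann cell and neuron markers, another possible source of Matn4, Sox5 and Hapln1 transcripts, summed to 246, 180 and 238 CPM with Elavl4 at 0 in the dTF-cKO; their part was not tested.

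**Figure D2:**
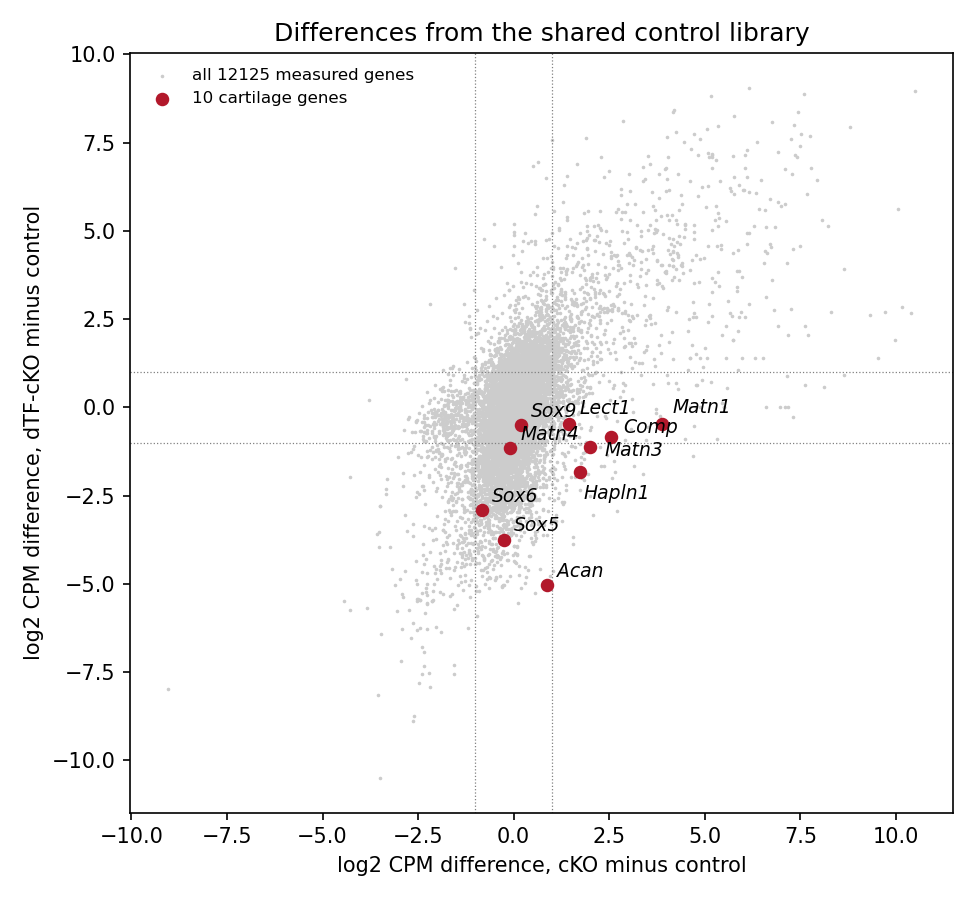
Log2 CPM difference of each gene from the control, cKO on the horizontal and dTF-cKO on the vertical axis, for 12125 measured genes (grey) and the 10 cartilage genes (red); dotted lines mark 2-fold. Both axes use the same control library, so the axes are not independent. No cartilage gene lies at or above 1 on the vertical axis, and Acan lies at -5.03; a scaling to stromal genes would add up to 1.99 to each vertical value.

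In the dTF-cKO, the library with the dm allele, the set was lower than in the control. Here 6 of the 10 genes were at least 2-fold lower, against 20.9% of all measured genes, and 0 were higher, against 19.5%. The median log2 difference was -1.14 beside 0.05 for all measured genes. The interval of the ratio excluded 1 for 5 of the 6, the exception being Matn3. These directions depend on the scaling. Centring on 37 stromal genes (markers of meninges, dermis and blood vessels), so that their median difference is about 0, adds 1.99 to the dTF-cKO differences from the control, and less for genes of few counts, where the prior count weighs more. Of those 37 genes, 25 were lower and 3 higher in the dTF-cKO before the centring. Under that scaling 3 of the 10 were higher (Sox9, Lect1 and Matn1) and 2 lower (Acan and Sox5), while 77.5% of the 13285 genes measured under it were higher and 4.4% lower.

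Acan showed the largest difference of this pair, 37.9-fold below the control (21.0 to 76.4), with a log2 difference of -5.03 that was still -3.19 under the stromal scaling. Sox5, with 1 count left, had a ratio of 0.0278 (0.000688 to 0.163). Sox6 was 8.02-fold lower (5.27 to 12.8), and the muscle markers were lower with it (9 of 9 measured, median -6.30), while 2 of 6 measured erythroid markers were higher and 0 lower (median 0.90). Hapln1 was 3.75-fold lower (2.40 to 6.09), Matn4 2.23-fold lower (1.84 to 2.72) and Matn3 2.74-fold lower (0.860 to 11.4). The other 4 genes did not reach a log2 CPM difference of 1, Comp only because the prior count shrinks low counts. Sox9 had a ratio of 0.700 (0.536 to 0.910), outside counting error. Matn1 had 0.710 (0.389 to 1.26), Lect1 0.708 (0.493 to 1.01) and Comp 0.497 (0.175 to 1.25; log2 CPM difference -0.85), all with intervals that include 1. Under the stromal scaling Hapln1, Matn3 and Matn4 turned to differences of 0.08, 0.46 and 0.83. Acan and Sox5 were the genes that remained at least 2-fold lower under each of the 6 scalings, and Sox6 fell just short of 2-fold under the stromal one. Totals without the 20 most abundant genes and totals without 4 marker lists each gave 7 of 10 lower, the added gene being Comp. The shares of all measured genes higher and lower were then 12.9% and 29.2%, and 14.1% and 26.9%. In the same library 10 of 11 measured epidermis and follicle markers were higher and 1, Lhx2, lower (median 5.63). Their part in the Sox9 value was not tested.

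Between the Cre-carrying libraries, 9 of the 10 genes were at least 2-fold below the cKO level in the dTF-cKO, against 20.5% of all measured genes, and 0 were higher, against 14.5%. The median log2 difference was -3.27, beside 0.01 for all measured genes, and -1.41 under the stromal scaling; the interval of the ratio excluded 1 for all 9. Acan was 69.5-fold lower (38.6 to 140), Matn1 22.2-fold (14.2 to 36.7), Comp 13.0-fold (6.07 to 33.3), Hapln1 12.6-fold (8.30 to 19.9) and Matn3 12.4-fold (4.54 to 47.2). Sox6 was 4.45-fold lower (2.84 to 7.25), Lect1 3.90-fold (2.86 to 5.42) and Matn4 2.10-fold (1.71 to 2.58), and Sox5 had a ratio of 0.0337 (0.000825 to 0.203). Sox9 was the tenth, with a ratio of 0.617 (0.470 to 0.806). Comp and Matn3, which reach the 5 CPM floor only through the cKO, are among the 9. With no expression floor 9 of 10 were again lower, against 20.1%. The stromal scaling, which adds up to 2.16 here, left 6 of the 10 lower (Acan, Matn1, Comp, Hapln1, Matn3 and Sox5) and put 2 higher (Sox9 and Matn4). It put 81% of all measured genes higher and 3.52% lower, and the totals without abundant genes or marker lists gave 9.26% and 28%, and 10.9% and 24.7%. This comparison shares the cKO or the dTF-cKO library with each of the others, so the comparisons do not stand as separate evidence.

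**Figure D3:**
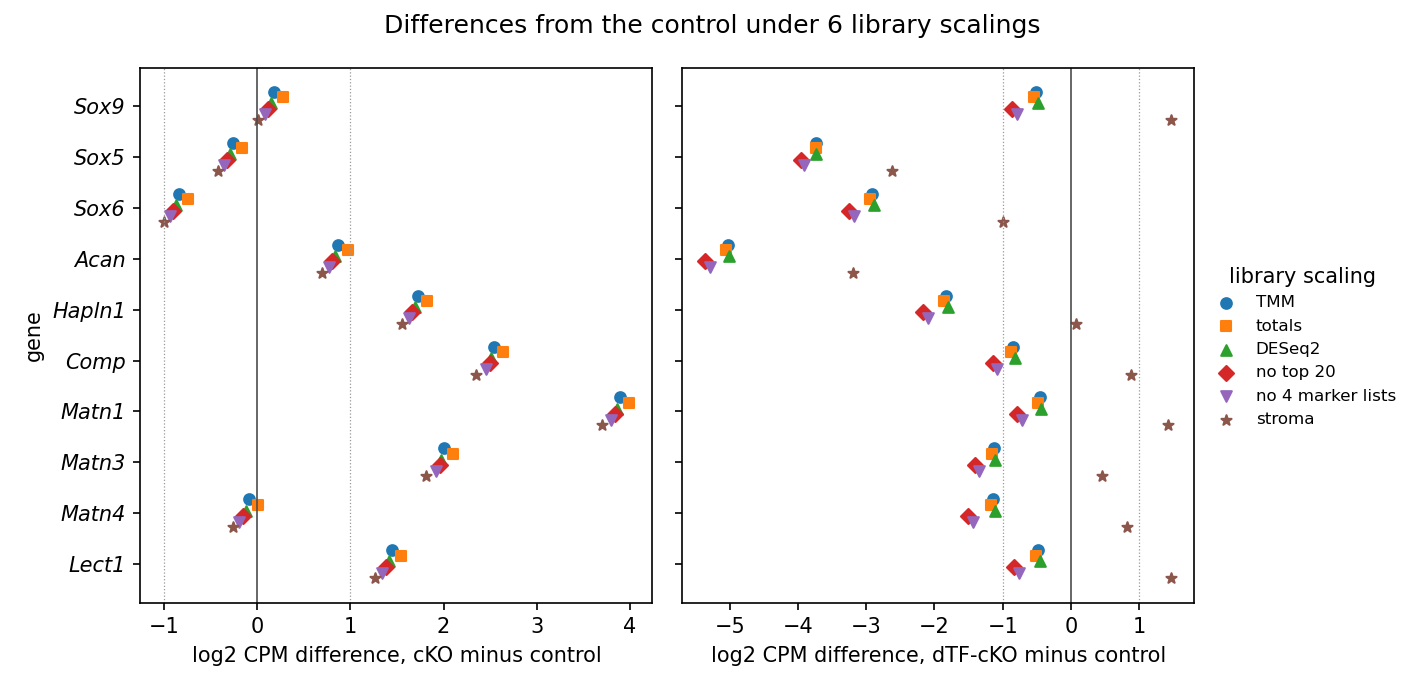
Log2 CPM difference from the control of each gene (rows) under 6 ways of scaling the libraries, cKO at left and dTF-cKO at right; dotted lines mark 2-fold. The 5 genes higher in the cKO stay right of 1 under all 6, while at right the stromal scaling moves 7 genes to the other side of 0 and leaves Acan, Sox5 and Sox6 below it.

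Shares within the set do not depend on how the libraries are scaled to each other. Acan took 31.8% of the 10 genes' counts in the control (29.6% to 34.1%) and 31.4% in the cKO (29.6% to 33.3%), values that overlap, but 2.93% in the dTF-cKO (1.47% to 5.17%). Matn1 took 2.15% in the control (1.51% to 2.96%), 18.2% in the cKO (16.7% to 19.8%) and 5.32% in the dTF-cKO (3.28% to 8.10%). Matn4 took 24.4%, 12.3% and 38.0%. The SOX trio together took 27.4% in the control (25.2% to 29.6%), 11.7% in the cKO (10.4% to 13.0%) and 30.9% in the dTF-cKO (26.2% to 35.8%). Within the trio the balance moved as well. Sox6 counts were 1.48 times those of Sox9 in the control (1.21 to 1.82), then 0.725 times in the cKO (0.560 to 0.935) and only 0.264 times in the dTF-cKO (0.161 to 0.417), intervals that do not overlap. Acan and Hapln1, whose proteins bind each other on hyaluronan, also shifted against each other: Acan counts were 4.63 times those of Hapln1 in the control (3.78 to 5.72), 2.53 times in the cKO (2.21 to 2.90) and 0.458 times in the dTF-cKO (0.203 to 0.972).

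**Figure D4:**
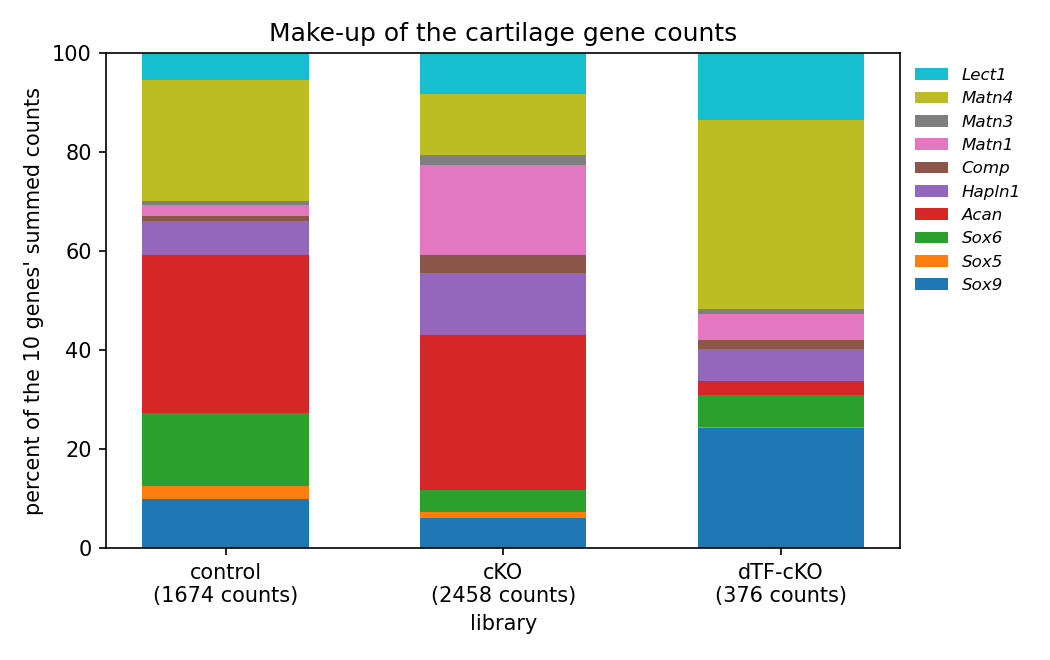
Percent of the 10 genes' summed counts taken by each gene, in the control (1674 counts), the cKO (2458) and the dTF-cKO (376). Matn1 widens from 2.15% to 18.2% in the cKO, and Acan narrows to 2.93% in the dTF-cKO.

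Per length of annotated exon, which allows genes to be ranked within a library, Matn4 (22.1 CPM per kb) and Acan (19.96) led the control, with overlapping intervals. Lect1 (14.0) and Sox9 (11.2) followed, with overlapping intervals, and Hapln1 (5.45), Matn1 (5.03) and Sox6 (4.64) formed a group whose intervals overlapped. Comp (1.70), Matn3 (1.30) and Sox5 (0.895) were lowest, again with overlapping intervals. In the cKO the first place passed to Matn1 at 79.2 CPM per kb, above Lect1 (38.6) and Acan (36.6), which overlapped. In the dTF-cKO Lect1 (9.89), Matn4 (9.88) and Sox9 (7.86) were highest and overlapped. Acan stood eighth there at 0.526 (0.263 to 0.942), overlapping Hapln1, Comp, Sox6 and Matn3. Sox5 had the lowest value of the 10 per length in each library, but in the dTF-cKO its interval overlapped that of Matn3. Length is the union of all annotated exons (14376 bases for Sox5, 14832 for Sox6), whichever transcripts were made.

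Col2a1, the main collagen of cartilage and the usual partner of these proteins in the matrix, had 1886, 4982 and 722 counts. The cKO level was 3.34 times the control level (3.17 to 3.52), and the dTF-cKO level 0.489 times (0.448 to 0.533). Setting each gene against Col2a1 in its own library gives a measure that no scaling can move. Hapln1 stood at 61.0 counts per 1000 of Col2a1 in the control (50.1 to 73.6) and 61.2 in the cKO (54.4 to 68.7), and Lect1 at 48.8 (39.1 to 60.2) and 40.3 (34.9 to 46.5), so both overlapped. Matn1 went from 19.1 (13.3 to 26.5) to 89.9 (81.5 to 99.1), Comp from 9.54 (5.64 to 15.1) to 18.5 (14.9 to 22.7), with a slight overlap, and Matn3 from 7.42 (4.05 to 12.5) to 10.04 (7.44 to 13.3), with a wide overlap. Acan went from 283 (256 to 311) to 155 (143 to 167), Matn4 from 216 (194 to 241) to 60.8 (54.0 to 68.3), and Sox9 from 88.0 (74.6 to 103) to 29.9 (25.2 to 35.2). Sox5 went from 24.4 (17.8 to 32.7) to 6.02 (4.06 to 8.61) and Sox6 from 130 (114 to 149) to 21.7 (17.7 to 26.2). The gain of Matn1 in the cKO thus exceeded that of Col2a1, and the SOX factors, Acan and Matn4 did not keep up with Col2a1. The cKO to control ratio of Comp, 6.46 (3.87 to 11.4), also lay above that of Col2a1. An overlap of intervals therefore does not show that a proportion was kept.

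In the dTF-cKO, 6 of the 10 genes overlapped the control's proportion to Col2a1. Matn1 stood at 27.7 per 1000 (16.8 to 43.1), Comp at 9.70 (3.88 to 20.1), Matn3 at 5.54 (1.51 to 14.2), Matn4 at 198 (164 to 237) and Lect1 at 70.6 (52.1 to 93.9), each overlapping its control interval. Sox9 was at 126 (100 to 157), whose interval overlaps that of the control at its edge. Its ratio to the control, 0.700 (0.536 to 0.910), nevertheless lay above the whole Col2a1 interval given above. Acan, at 15.2 (7.57 to 27.4), Sox6, at 33.2 (21.2 to 49.9), and Sox5, at 1.39 (0.0350 to 7.74), lay below their control intervals, and Hapln1, at 33.2 (21.2 to 49.9), lay just below its own. The shortfall of the dTF-cKO beyond that of Col2a1 was therefore seen for Acan, Sox5, Sox6 and, by a small margin, Hapln1.

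**Figure D5:**
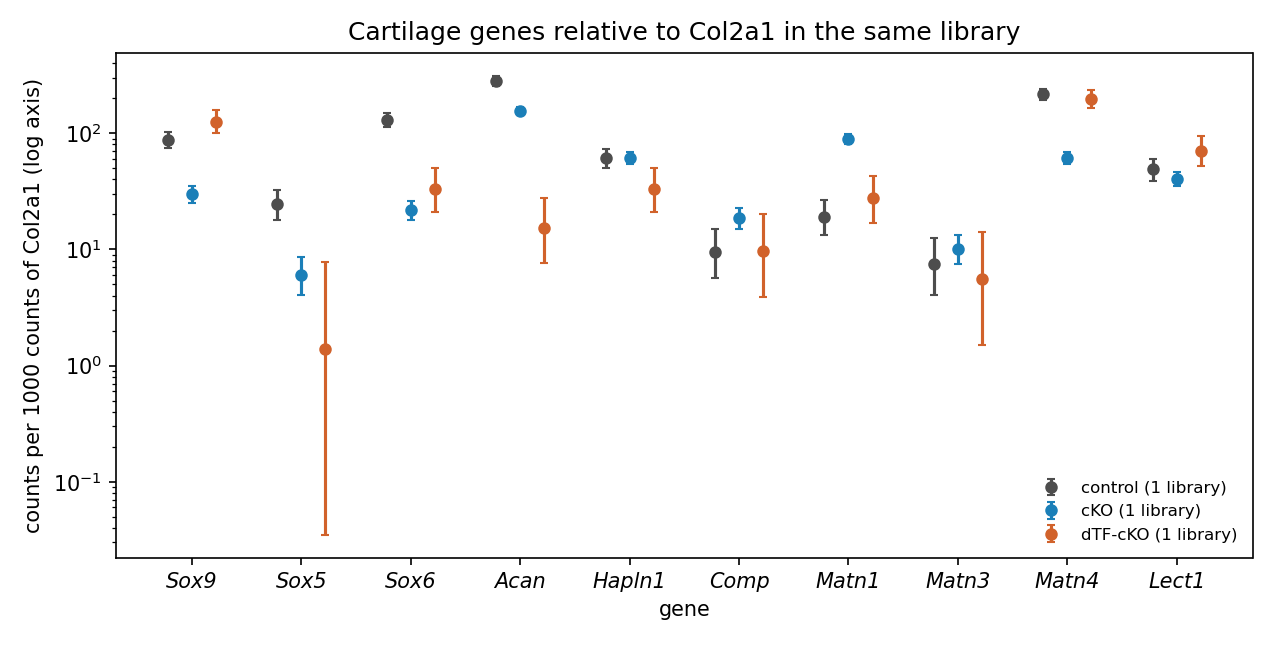
Counts of each gene per 1000 counts of Col2a1 in the same library (log axis), with exact 95% intervals of counting error. In the cKO, Hapln1 and Lect1 overlap their control intervals and Matn1 lies above its own at 89.9, whereas in the dTF-cKO Acan falls to 15.2 from 283.

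Other genes of cartilage matrix gave a mixed picture beside the set. The list counts that follow use the TMM scaling, under which 9.67% and 6.78% of all measured genes were higher and lower in the cKO and 19.5% and 20.9% in the dTF-cKO. In a comparison added after seeing the data, the stromal scaling took the dTF-cKO medians from -1.66 to 0.14 for other cartilage matrix, -0.51 to 1.43 for regulators, -1.13 to 0.82 for chondroitin sulfate assembly and -0.74 to 1.24 for turnover. Relatives went from -2.14 to -0.20 and hypertrophic genes from -4.67 to -4.38, while the median of all measured genes became 2.01. Of 14 measured genes of a list of 21, 7 were higher in the cKO by 2-fold or more and 1 lower (median 0.70). In the dTF-cKO 8 were lower and 1 higher than in the control (median -1.66). Against the cKO 13 were lower (median -2.27), beside 20.5% of all measured genes. Under the stromal scaling 4 were lower than in the cKO and 1 higher (median -0.25). The median of all measured genes was then 2.12. Col9a1 and Col9a3, chains of the collagen on the surface of cartilage fibrils, had cKO ratios of 3.57 (3.03 to 4.22) and 3.51 (3.03 to 4.08), close to Col2a1. Their dTF-cKO ratios to the control were 1.08 (0.877 to 1.34) and 1.22 (1.02 to 1.47). Col11a2, a chain of fibrils that both cartilage and bone-forming cells make, had 5479, 1455 and 175 counts, 2.98-fold lower in the cKO and 24.5-fold lower in the dTF-cKO. Col9a1, Col9a3 and Col2a1 were named after their values were seen. Snorc, a chondrocyte proteoglycan listed as 3110079O15Rik, had 0, 33 and 10 counts; against a floor of 3 counts per library the Cre-carrying libraries were at least 13.9-fold and at least 4.26-fold higher. Cilp, a protein of the middle layer of cartilage, had 38, 15 and 0 counts and was at least 9.91-fold lower in the dTF-cKO against the same floor. Prelp, a leucine-rich matrix protein, had 190, 147 and 11 counts.

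Close relatives of the 10 genes included none that was 2-fold higher in the cKO. Of 10 measured relatives of 15, 0 were higher and 3 (Sox8, Thbs2 and Thbs4) lower (median -0.25), and 6 were below the control in the dTF-cKO (median -2.14). Matn2, the matrilin of wider tissue range, had 458, 300 and 48 counts, with ratios of 0.828 (0.714 to 0.960) and 0.134 (0.0973 to 0.181) to the control. Vcan, versican, the aggrecan relative of loose mesenchyme, had 1781, 1195 and 246 counts, with ratios of 0.849 and 0.176. Thbs2, a thrombospondin and so a relative of Comp, had 4612, 1798 and 339 counts, with ratios of 0.493 and 0.0939. Sox8, of the same SOX subgroup as Sox9, had 52, 8 and 2 counts. Tnmd, tenomodulin, the closest relative of Lect1 and a gene of tendon, was named after its values were seen and had 179, 130 and 126 counts, with ratios of 0.919 (0.727 to 1.16) and 0.899 (0.710 to 1.14).

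Regulators and enzymes around the set were less altered in the cKO. Of 12 measured chondrogenic regulators of 15, 0 were higher and 1, Sox8, was lower in the cKO (median -0.02), and in the dTF-cKO 2 (Arid5b and Zfp219) were higher and 4 (Sox8, Foxc1, Trps1 and Runx3) lower (median -0.51). Zfp219, a zinc finger partner of SOX9, had 122, 136 and 285 counts, 2.98-fold higher in the dTF-cKO (2.41 to 3.72), and Foxc1 had 186, 166 and 40 counts with a ratio of 0.275 (0.190 to 0.388). Of 22 measured genes of chondroitin sulfate assembly, which builds the sugar chains of aggrecan, 1 was higher and 1 lower in the cKO (median -0.27). The higher gene, named after its value was seen, was Slc26a2, the sulfate transporter that chondrocytes need, with 116, 285 and 103 counts and a 3.11-fold excess (2.496 to 3.89); the lower was Chpf, with 599, 205 and 108. In the dTF-cKO 12 of the 22 were lower and 0 higher than in the control (median -1.13). Chst12, a chondroitin sulfotransferase, had 215, 120 and 13 counts, and Chsy1, which extends the chain, had 524, 247 and 81. Of 10 measured genes of aggrecan and hyaluronan turnover, 1 was higher and 0 lower in the cKO (median 0.07). In the dTF-cKO 5 were lower and 1 higher than in the control (median -0.74), the lower being Adamts9, Tmem2 and 3 others, Adamts15 with 256, 230 and 4 counts and the aggrecanases Adamts4 with 168, 91 and 25 and Adamts5 with 161, 131 and 24. Has3, a hyaluronan synthase also made by epidermis, was the higher gene in each comparison with the control, with 4, 24 and 19 counts. Has3 reaches the 5 CPM floor only through the Cre-carrying libraries, in which it is high.

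Of 10 listed genes of hypertrophic cartilage, the last stage before bone replaces cartilage, 9 were measured. Col10a1 was the gene below the floor, and it had 0 counts in the dTF-cKO. The measured genes did not follow the set in the cKO, where 8 of 9 were lower than in the control and 0 higher (median -2.34). In the dTF-cKO 8 of 9 were lower and 1, Vegfa, higher (median -4.67, or -3.89 with genes at 0 placed at the 3-count floor). Ibsp, Alpl, Runx2 and Spp1 of that list are on the osteoblast list as well. Whether the other hypertrophic transcripts came from cartilage or from bone-forming cells was not tested. Of the osteoblast markers, 12 of 12 were lower in the cKO (median -2.03) and 11 of 12 in the dTF-cKO (median -5.14). The hypertrophic and osteoblast lists therefore do not stand as separate evidence.

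Genes with a pattern most like each of the 10 were taken by the distance between their pairs of log2 differences from the control, over 3 libraries and among 7680 of the 7959 genes with a mean of at least 20 CPM, leaving out 279 whose symbols mark predicted or unnamed models. Wwp2 (322, 289 and 179 counts) and Ctnnbip1 (122, 110 and 66) were nearest to Sox9, at distances of 0.02 each, and 263 genes lay within 0.25 of it. Kdm2b and Abr were nearest to Matn4, which had 167 genes within 0.25. Zcchc5 and Prss35 were nearest to Sox5, Htra3 and P4ha3 to Sox6, and Dpt and Ddx26b to Lect1, which had 5, 21 and 7 genes within 0.25. Mir6236 and Lars2 were nearest to Matn3, with 2 within 0.25. Acan, Comp, Matn1 and Hapln1 had 0 genes within 0.25. Their nearest were Heyl and Ttr at 0.40 and 0.42 from Acan, Lyve1 and Gcat at 0.48 and 0.63 from Comp, Ces2g and Fam57a at 0.34 and 0.84 from Matn1, and Nod1 and Thsd1 at 0.26 and 0.40 from Hapln1. Over so few libraries a near pattern is common for genes with small differences and uncommon for the strongly altered ones.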

How the data were processed

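RNA was made with a Qiagen RNeasy kit and libraries with an Ion Total RNA-Seq kit, per the labels' protocols. The authors deposited raw read counts for each gene, on mm10 per the submitters' processing notes. Which aligner, counter, annotation and strandedness they used is not given in the sources used here. In GENCODE vM21, exons of Sox5 and Matn4 share 1330 and 149 bases with Sox5os1 and Rbpjl on the opposite strand, which had at most 5 counts in any library. Rows of repeated symbols (4, at most 250 counts) were left out of the gene values.

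Counts were scaled with TMM factors (edgeR 4.0.16, R 4.3.3; 0.984, 1.06 and 0.963 for control, cKO and dTF-cKO), and 2 was the prior count for log2 CPM. Ratios are of scaled counts, with exact conditional 95% intervals (SciPy 1.17.1). No molecular identifiers are described in the labels, and PCR copies are not separate molecules. The intervals and the 3-count floor (0.839, 1.06 and 1.07 CPM) therefore cover counting error only. No p-value was computed. Intervals and calls were tried on simulated counts that held counting error only. That check cannot speak to variation between embryos or to PCR copies.

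The genes, gene lists, comparisons and alternatives were chosen with earlier results of these data known. Named genes were the 10, Ctnnb1, Twist2, the sex-linked genes, up to 4 genes per list of at least 2-fold difference and the 2 nearest patterns per gene; not all are printed. Of the list symbols, Epb42 was not matched. The erythroid, tendon and other marker lists have a summary in the report.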

Additional observations from a re-analysis of the deposited data

How the results depend on the processing

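The counts and medians were recomputed under 12 alternatives to the scaling, prior count, expression floor and size rule. Library totals, DESeq2 1.42.0 size factors, totals that omit each library's 20 top genes (33 genes in all) and totals without 4 marker lists (42 genes) changed no count of higher or lower genes by more than 1.5 times. They move every log2 difference by at most 0.36. The 5 genes higher in the cKO became 3 with a floor of 20 CPM, which drops Comp, Matn3 and Sox5 and leaves 7 genes. The count lower in the cKO went from 0 to 1, Sox6, under the stromal scaling, under a 1.5-fold rule and where an interval excluding 1 sufficed. The stromal scaling changed the dTF-cKO most. Against the control it gave 3 higher in place of 0 and 2 lower in place of 6, and against the cKO 2 higher in place of 0. The median against the control became 0.64 in place of -1.14. Against the cKO the median went from -3.27 to -1.41 under it, to -2.05 with a prior count of 10 and to -2.07 with a floor of 20 CPM; that floor also took the cKO median from 1.16 to 0.87. Of 261 values of single genes under an alternative, 12 changed sign, 11 of them under the stromal scaling. Those at least 2-fold lower before were Hapln1 (0.0802), Matn3 (0.46) and Matn4 (0.83) against the control, and Lect1 (0.19), Matn4 (1.08) and Sox6 (0.00436) against the cKO. The others were Sox9 (1.46), Lect1 (1.46), Matn1 (1.42) and Comp (0.88) against the control and Sox9 (1.45) against the cKO. Library totals turned Matn4 in the cKO from -0.09 to 0.01. The cause was not tested. No paired analysis was possible because there is 1 library per genotype, and for the same reason none could be left out. Depth limits Sox5, Matn3 and Comp most, with 1, 4 and 7 counts in the dTF-cKO.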
